A study of Mus musculus with 13 samples.

Results

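Host genes that restrict retroelements were followed in mouse embryonic stem (ES) cells. The group held 8 genes, chosen by symbol: Mov10, Cul7, Fbxw8, Apobec3, Samhd1, Trex1, Zc3hav1 and Adar. All 8 had a row in a joint count table of 49671 genes, and 6 of the 8 had a row in the replicate files of 26797 genes. Cul7 and Trex1 were not analysed in the replicates. Messenger RNA was sequenced from 3 replicate libraries of WT cells and 3 of Dnmt1-/- cells, and from 4 further libraries with 1 per condition: WT, Dnmt1-/-, dCas9-OGA and dCas9-OGA(D242A). WT replicates are the AinV15 line. The Dnmt1-/- replicates are a separate line, labelled as the D1-null strain with the C allele of Dnmt1, the maintenance DNA methyltransferase. Genotype and cell line cannot be told apart in that contrast. dCas9-OGA cells are AinV15 cells with wild-type Dnmt1 in which doxycycline induces a nuclease-dead Cas9 joined to a bacterial O-GlcNAc hydrolase (OGA), with 4 sgRNAs against the U3 promoter region of intracisternal A-type particle (IAP) retrotransposons. dCas9-OGA(D242A) cells carry the same fusion and the same sgRNAs, with an OGA mutation that abolishes its activity, and are the control for the hydrolase. The WT and Dnmt1-/- libraries of the joint table are named by genotype only and could not be tied to a replicate. No label gives their cell line, and every ratio to the single WT library carries this limit. The growth protocol of the labelled samples names gelatin, serum and leukemia inhibitory factor, and no feeder cells. O-GlcNAc ChIP-seq was not analysed here.

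Retrotransposons copy themselves through an RNA intermediate, and restriction factors act on that RNA, on the cDNA made from it, or on the sensing of either. MOV10 is an RNA helicase that blocks LINE-1 and retroviral replication, ZC3HAV1 (ZAP) binds CpG-rich RNA and directs its decay, and ADAR deaminates adenosine in double-stranded RNA. APOBEC3 deaminates cytosine in nascent cDNA, SAMHD1 hydrolyses deoxynucleotides, and TREX1 degrades cytosolic DNA. CUL7 is a cullin scaffold and FBXW8 the F-box protein that joins it in a ubiquitin ligase. The study discussed MOV10 and CUL7 among proteins that lose O-GlcNAc with demethylation in TRIM28 complexes. The RNA level of these genes is what was measured here, not their glycosylation.

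Promoter sequences of 5 members are given because Dnmt1 maintains DNA methylation, which in mammals falls mainly on CpG dinucleotides. They are RefSeq windows of 300 bases on GRCm38.p6, from 250 bases before the start of transcription to 50 bases after it, with each CpG in capitals. Mov10 and Cul7 are the 2 genes that name the group, Apobec3 and Zc3hav1 rose in the Dnmt1-/- replicates, and the Adar window is the most CpG-rich of the group.
Mov10, chr3:104818514-104818813, minus strand: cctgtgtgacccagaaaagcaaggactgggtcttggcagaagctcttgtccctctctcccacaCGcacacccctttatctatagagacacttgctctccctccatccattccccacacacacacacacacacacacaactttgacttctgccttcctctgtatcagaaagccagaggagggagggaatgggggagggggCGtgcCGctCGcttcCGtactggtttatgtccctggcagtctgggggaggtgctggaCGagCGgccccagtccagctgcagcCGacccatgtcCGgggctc
Cul7, chr17:46650088-46650387, plus strand: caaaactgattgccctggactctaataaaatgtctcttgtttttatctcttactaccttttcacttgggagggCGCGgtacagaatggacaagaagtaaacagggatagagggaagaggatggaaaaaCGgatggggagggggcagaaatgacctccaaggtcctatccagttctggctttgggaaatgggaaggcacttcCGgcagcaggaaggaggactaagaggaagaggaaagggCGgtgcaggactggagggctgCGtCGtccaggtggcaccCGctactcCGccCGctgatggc
Apobec3, chr15:79892158-79892457, plus strand: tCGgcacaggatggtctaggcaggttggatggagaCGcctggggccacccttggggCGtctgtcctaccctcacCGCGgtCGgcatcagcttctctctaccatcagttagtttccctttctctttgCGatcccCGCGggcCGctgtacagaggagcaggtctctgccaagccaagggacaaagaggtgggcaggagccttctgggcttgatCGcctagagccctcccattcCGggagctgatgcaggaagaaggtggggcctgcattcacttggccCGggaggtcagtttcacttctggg
Zc3hav1, chr6:38354554-38354853, minus strand: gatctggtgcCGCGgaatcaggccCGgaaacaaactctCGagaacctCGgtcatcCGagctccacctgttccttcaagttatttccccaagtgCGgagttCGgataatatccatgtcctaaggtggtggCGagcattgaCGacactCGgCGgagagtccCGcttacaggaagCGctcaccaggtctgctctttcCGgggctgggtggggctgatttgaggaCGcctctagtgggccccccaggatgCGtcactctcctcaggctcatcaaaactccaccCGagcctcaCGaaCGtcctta
Adar, chr3:89714988-89715287, plus strand: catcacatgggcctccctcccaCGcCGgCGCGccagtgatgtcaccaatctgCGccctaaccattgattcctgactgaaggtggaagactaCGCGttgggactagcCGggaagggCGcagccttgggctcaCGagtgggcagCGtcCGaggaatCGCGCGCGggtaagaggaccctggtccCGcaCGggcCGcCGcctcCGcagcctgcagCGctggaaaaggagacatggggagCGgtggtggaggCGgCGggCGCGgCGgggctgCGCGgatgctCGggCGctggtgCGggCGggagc

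The windows differ widely in CpG content. A promoter window was found for 7 of the 8 members, and all 32851 windows had a median of 7 CpG with quartiles of 3 and 20. The printed Adar window held 34 CpG, more than 92.3% of all windows, and the Samhd1 window held 29, more than 87.1%. Zc3hav1 held 20. The 2 Mov10 windows held 9 and 13, the Cul7 window 10, the 2 Apobec3 windows 13 and 4, and the 2 Trex1 windows 7 and 5. Adar had 2 further start sites with 6 and 12 CpG. Most of these windows thus lay between the quartiles, and the windows of Samhd1 and of 1 Adar start site lay above the upper quartile. Methylation of these windows was not measured in the files used here.

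**Figure D1:**
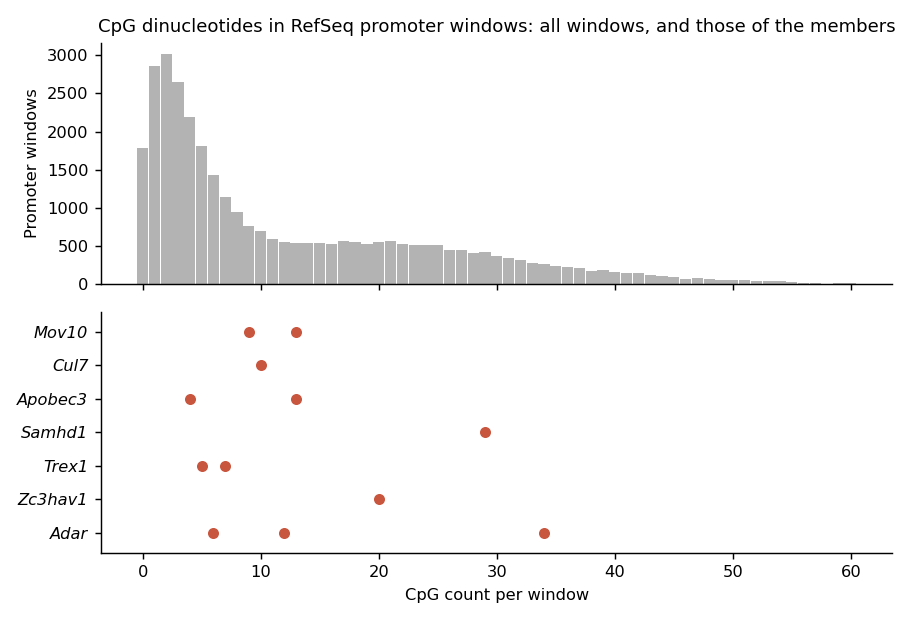
Upper panel: number of RefSeq promoter windows (vertical axis) by CpG count per 300-base window (horizontal axis), over 32851 windows. Lower panel: each point is a window of a named member, from 4 CpG in Apobec3 to 34 in Adar.

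An interferon-stimulated response element was searched as GAAANNGAAA on both strands, where N is any base. It was found in 3.44% of all windows and in 1 member window, that of Apobec3 printed above, where it reads TTTCCCTTTC from base 111 on the printed strand. The gamma-activated site TTCNNNGAA was found in 8.30% of all windows, in the Samhd1 window as TTCGGAGAA and in an Adar window as TTCAAGGAA. A match describes the letters only.

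The replicate libraries held 26846275 to 37112247 reads on genes, recovered from the deposited signal, and the single libraries 18693531 to 25097983 counts. Correlations between libraries over 17297 genes were at least 0.997 within a group and at most 0.963 between groups. Dnmt1 itself, a check of the genotype, had a signal of 307.9, 351.9 and 346.7 in WT and 73.6, 75.4 and 77.6 in Dnmt1-/- replicates, and in the joint table it stood at 460.2 cpm for WT and 61.9 cpm for Dnmt1-/-. Defining ES cell genes were present in every library, with 7 of them summing to 5353 to 5501 in WT and 5161 to 5558 in Dnmt1-/- replicates. Of these 7, 1 rose and 3 fell in Dnmt1-/-. All 8 ES cell genes summed to 5750 cpm in dCas9-OGA, 3939 in its D242A control, 4920 in WT and 3987 in Dnmt1-/-. Fibroblast markers differed more. The 7 fibroblast genes, which include Dcn, Postn, Col1a2 and Col3a1, summed to 1304.4, 1540.4 and 1072.3 in WT and to 267.0, 280.5 and 250.6 in Dnmt1-/- replicates, all 7 were lower in Dnmt1-/-, and none was at 0. In the single libraries the same genes summed to 30.7 to 61.3 cpm. The source of this RNA in the WT replicates was not tested, and every replicate contrast below carries this difference between the groups.

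In the replicates, Mov10 and Adar fell in Dnmt1-/- cells, whereas Zc3hav1, Apobec3, Fbxw8 and Samhd1 rose. All 6 members with a row passed the filter on low values and the test, and in all 6 the groups did not overlap. This is a contrast in which 71.2% of all 17297 genes tested passed the same test, with 35.8% higher and 35.4% lower, and in which the groups did not overlap for 73.3% of genes. Passing the test therefore does not mark out the members. The median absolute log2 fold change was 0.49 over the 6 members and 0.36 over all genes tested, and none of the 6 changed 2-fold, as 13.1% of all genes tested did. Values are a normalized signal, reads divided by a scaling factor for each library. Every p below is from limma with Benjamini-Hochberg adjustment over all genes tested. In bulk RNA, fewer cells of a type and less RNA per cell cannot be told apart. No source says that the replicates were separate cultures, so the p-values measure the spread between these libraries, which may be technical.

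Mov10 (ENSMUSG00000002227, chr3:104794836-104818563, minus strand of GRCm38) gave a signal of 136.0, 150.1 and 147.3 in the WT replicates and 76.3, 73.5 and 81.5 in the Dnmt1-/- replicates. Every Dnmt1-/- library was lower than every WT library. The means were 144.5 ± 7.45 and 77.1 ± 4.05 (SD, n = 3 each), a 1.87-fold fall with a log2 fold change of -0.90 (SE 0.053, 95% confidence interval -1.01 to -0.79, adjusted p = 2.06e-13). Of all genes tested, 16.2% changed by at least as much in either direction, so Mov10 moved more than most, though not at the extreme.

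Adar (ENSMUSG00000027951, chr3:89715022-89753446, plus strand), which encodes the ubiquitous adenosine deaminase, had 50.4, 56.2 and 48.8 in WT and 35.3, 35.5 and 36.0 in Dnmt1-/- replicates. The Dnmt1-/- values lay close together and below all WT values. The log2 fold change was -0.53 (SE 0.059, adjusted p = 2.17e-08), and 34.6% of genes changed by as much. Mov10 and Adar both lie on chromosome 3, where the 712 other protein-coding genes tested had a median log2 fold change of -0.061. Exons of Adar share 16.8% of their bases with Chrnb2 on the opposite strand, a receptor subunit with 53 to 79 counts in the single libraries.

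Zc3hav1 (ENSMUSG00000029826, chr6:38305286-38354603, minus strand) rose the most of the members. Its signal was 63.4, 67.1 and 66.3 in WT and 101.8, 99.2 and 108.8 in Dnmt1-/- replicates. The lowest Dnmt1-/- library was well above the highest WT library. The rise was 1.57-fold, a log2 fold change of 0.65 (SE 0.052, adjusted p = 5.66e-11), with 27.2% of genes changing by as much.

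Apobec3 (ENSMUSG00000009585, chr15:79891659-79915906, plus strand), the only APOBEC3 gene of the mouse, had 72.0, 65.4 and 77.2 in WT and 99.9, 94.0 and 100.3 in Dnmt1-/- replicates. The groups were separated by more than either group's range. The log2 fold change was 0.46 (SE 0.057, adjusted p = 1.50e-07), and 40.7% of genes changed by as much. Of the exon bases of Apobec3, 7.15% are shared with D730005E14Rik and 1.06% with Cbx7 on the opposite strand. Cbx7 had 2310 to 5353 counts in the single libraries.

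Fbxw8 (ENSMUSG00000032867, chr5:118064965-118155464, minus strand), the F-box partner of CUL7, had 50.5, 50.7 and 53.1 in WT and 58.6, 61.1 and 63.5 in Dnmt1-/- replicates. The groups did not overlap, but the rise of 0.24 on the log2 scale (SE 0.054, adjusted p = 2.72e-04) was small, and 64.0% of genes tested changed by at least as much. Of its exon bases, 33.4% are shared with the antisense gene Gm9754, which had 1 to 9 counts in the single libraries.

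Samhd1 (ENSMUSG00000027639, chr2:157097533-157135265, minus strand) had 43.8, 47.2 and 46.3 in WT and 49.1, 48.8 and 52.5 in Dnmt1-/- replicates. The lowest Dnmt1-/- value was 48.8 and the highest WT value 47.2, a gap smaller than the range within either group. The log2 fold change was 0.13 (SE 0.056, adjusted p = 0.0424). This call was not stable: with limma the adjusted p was 0.0593 after TMM scaling, 0.166 without WT replicate 1, 0.0564 without Dnmt1-/- replicate 1, 0.0559 without Dnmt1-/- replicate 2 and 0.180 without Dnmt1-/- replicate 3.

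**Figure D2:**
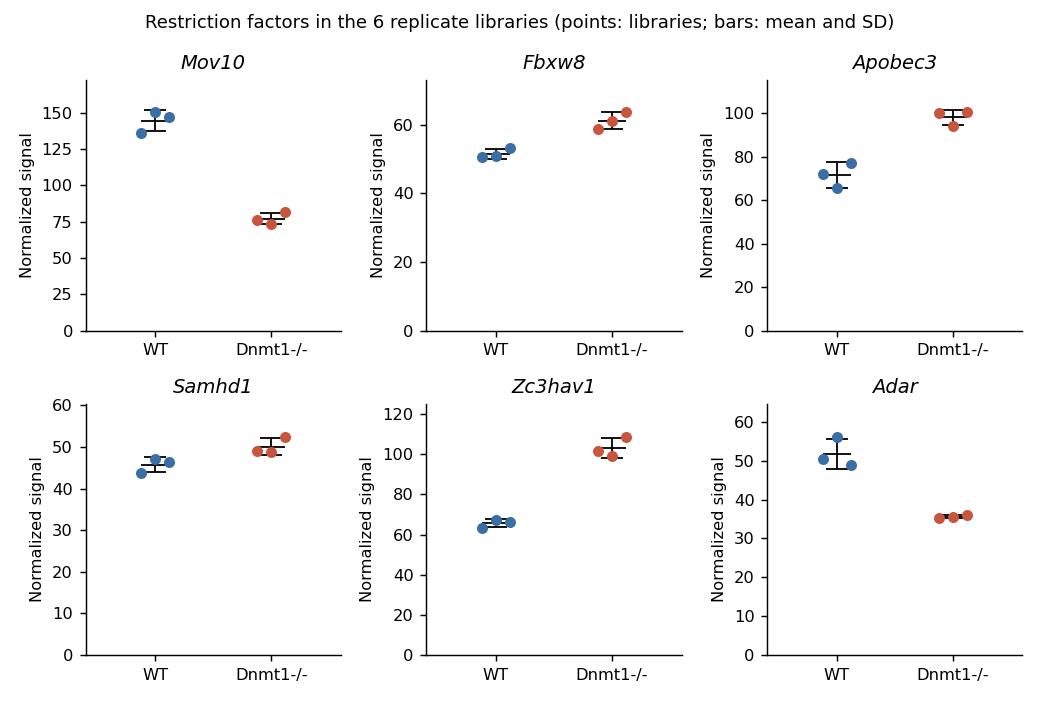
Normalized signal (vertical axes, each from 0) of the 6 members in the 3 WT and 3 Dnmt1-/- replicate libraries. Points are libraries and bars the mean and SD. Mov10 fell from a mean of 144.5 to 77.1 and Zc3hav1 rose from 65.6 to 103.3, while the Samhd1 groups nearly meet.

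**Figure D3:**
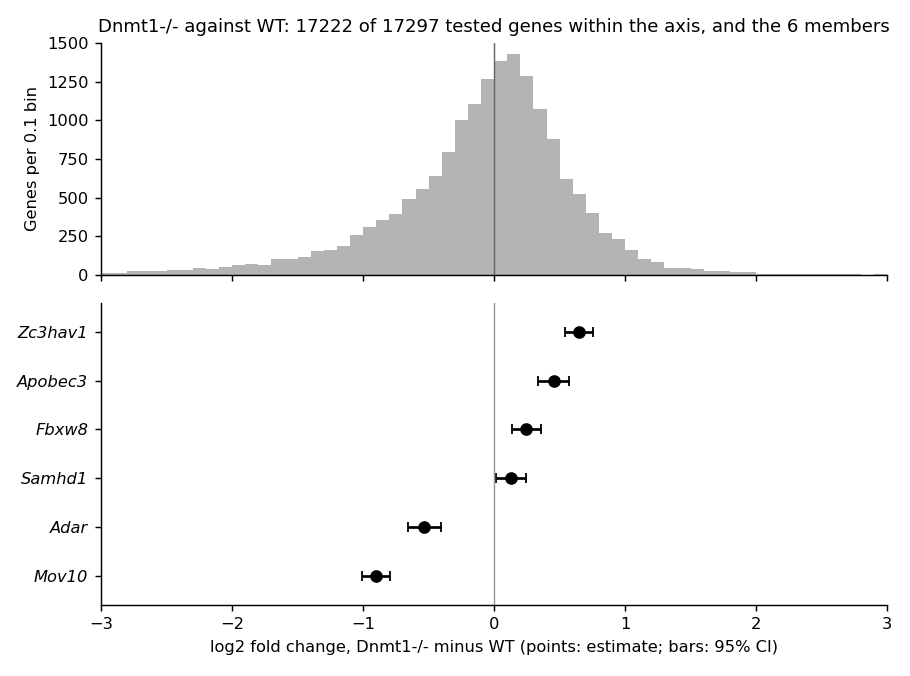
Upper panel: number of genes tested (vertical axis) by log2 fold change, Dnmt1-/- minus WT (horizontal axis, limited to the range from -3 to 3). Lower panel: estimates and 95% confidence intervals of the 6 members on the same axis, from -0.90 for Mov10 to 0.65 for Zc3hav1, all inside the bulk of the distribution.

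The order of the members by level changed between the groups. Divided by exon length, Mov10 was the highest member in WT replicates at 25.8 ± 1.33 signal per kb (SD, n = 3), followed by Zc3hav1 at 10.1 ± 0.301, Fbxw8 at 9.31 ± 0.264, Apobec3 at 7.56 ± 0.624, Adar at 6.38 ± 0.479 and Samhd1 at 5.01 ± 0.194. Libraries of Apobec3 and Adar overlapped, and other neighbours in this order did not. In Dnmt1-/- replicates Zc3hav1 was highest at 15.8 ± 0.755 signal per kb, above Mov10 at 13.8 ± 0.722, Fbxw8 at 11.1 ± 0.449, Apobec3 at 10.4 ± 0.372, Samhd1 at 5.48 ± 0.222 and Adar at 4.39 ± 0.0422. There only Fbxw8 and Apobec3 overlapped. Mov10 thus stood apart at the top in the WT replicates and came after Zc3hav1 in the Dnmt1-/- replicates.

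Genes around the CUL7 ligase and its 3M complex were mixed. Of 9 listed, 7 had a row and were tested: 1 rose, 3 fell and 3 did not pass, with a median log2 fold change of -0.10. Over all genes tested, 35.8% rose and 35.4% fell, so these counts do not mark out the list. Cand1, which exchanges substrate receptors on cullins, rose from 315.5 ± 8.04 to 373.7 ± 12.9 (log2 fold change 0.24). Obsl1, a 3M complex scaffold, fell from 92.4, 105.6 and 102.2 in WT to 69.7, 71.5 and 70.1 in Dnmt1-/- replicates. The reported substrates Ccnd1 (cyclin D1) and Irs1 (insulin receptor substrate) fell by 1.47 and 1.81 on the log2 scale, the latter from a low signal of 5.21 ± 1.18. H19 and Igf2, a reciprocally imprinted pair that the study ties to CUL7, moved apart in the replicates only. There H19 rose from 88.5 ± 7.93 to 226.3 ± 11.2 and Igf2 fell from 157.7 ± 17.7 to 29.2 ± 1.46 (log2 fold changes 1.35 and -2.41, limma adjusted p = 4.93e-16 and 7.66e-20, n = 3 each). In the single libraries both were lower in Dnmt1-/- than in WT. H19 had 135.6 against 181.3 cpm, the reverse of its direction in the replicates, and Igf2 had 14.7 against 200.0 cpm.

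Other restriction factors and their cofactors moved in both directions. Of 24 tested, 9 rose, 9 fell and 6 did not pass, with a median log2 fold change of 0.064 against 0.0069 over all genes tested. Among all genes tested, 35.8% rose and 35.4% fell, so these counts do not mark out the list. Mov10l1, the germline paralogue of Mov10 that acts in piRNA biogenesis, went the opposite way to Mov10. Its signal was 12.9, 12.2 and 11.8 in WT and 41.9, 41.6 and 46.6 in Dnmt1-/- replicates, a 3.43-fold rise. Ifitm3, an interferon-induced membrane protein, fell from 212.7, 228.8 and 191.0 to 39.3, 39.3 and 36.8. Falls were also seen for Apobec2 from 28.6 ± 0.108 to 7.55 ± 0.251 and the RNA exonuclease gene Isg20 from 3.66 ± 0.673 to 0.957 ± 0.260. The single libraries did not repeat these changes. There Ifitm3 went the other way, with 63.7 cpm in WT and 231.1 cpm in Dnmt1-/-. Mov10l1 was nearly level at 13.8 and 14.4 cpm, as was Apobec2 at 5.24 and 5.73 cpm, and Isg20 had too few counts to compare.

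Sensing genes tied to Aicardi-Goutieres syndrome, the interferon disease of TREX1, SAMHD1 and ADAR mutations, showed 4 rises and 5 falls among 10 tested, where 35.8% and 35.4% of all genes rose and fell, with a median log2 fold change of -0.069. The cytosolic DNA sensor gene Mb21d1 (cGAS) rose from 3.70, 3.58 and 3.41 in WT to 6.55, 7.13 and 7.33 in Dnmt1-/- replicates. Its adaptor Tmem173 (STING) fell from 7.23 ± 1.12 to 2.63 ± 0.245, the double-stranded RNA sensor Ifih1 (MDA5) from 10.4 ± 1.62 to 0.962 ± 0.200, and Zbp1 from 5.29 ± 0.920 to 1.62 ± 0.0943. In the single libraries, 2 of 8 sensing genes compared were at least 2-fold higher in Dnmt1-/- than in WT and 0 were lower, with a median log2 ratio of 0.32. Zbp1 went the other way there, with 1.78 cpm in WT and 6.68 cpm in Dnmt1-/-.

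Interferon-stimulated genes mostly fell in the replicates, with 15 of 18 lower, 2 higher and 1 not passing, and a median log2 fold change of -1.99. Of all genes tested, 35.4% were lower and 35.8% higher. Ifit3, Isg15 and Ifit1 had mean signals of 49.1, 56.2 and 49.8 in WT and 1.03, 1.24 and 1.18 in Dnmt1-/- replicates, and Usp18 had 6.37 and 0.0923. The 18 genes summed to 435.5, 436.1 and 381.1 in WT and to 165.6, 166.3 and 162.4 in Dnmt1-/- replicates. Mov10 and Adar, both of which interferon is known to induce, fell along with this list, while Zc3hav1, Apobec3 and Samhd1, also known to respond to interferon, rose. The fall of the list went with the lower fibroblast markers given above, whose part in the result was not tested. In the single libraries, where the fibroblast genes summed to at most 61.3 cpm, the same 18 genes summed to 98.4 cpm in WT and 188.0 cpm in Dnmt1-/-. Most of that difference was Ddx58, a gene picked out after its values were seen, with 33.1 and 100.1 cpm. The median log2 ratio of the 7 genes with enough counts was 0.23, and Ifit3, Isg15 and Ifit1 were each at or under 1.00 cpm in both libraries.

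The single libraries address the response to the targeted hydrolase and give the only values for Cul7. With 1 library per condition there is no test, and intervals cover counting error only. Levels are cpm, counts scaled to a common library size with TMM, and 7 members reached the minimum of 100 counts in each comparison. No member differed 2-fold between dCas9-OGA and its D242A control, where 12.1% of 12722 genes did. Against the WT library, 1 of 7 members differed 2-fold in dCas9-OGA (23.8% of genes did), 0 of 7 in dCas9-OGA(D242A) (20.8%) and 0 of 7 in Dnmt1-/- (17.4%). These 3 comparisons share the WT library. Its genes of the 2-cell-like state summed to 26.6 cpm, against 0.363 to 1.33 cpm in the other libraries. Its primitive endoderm genes summed to 48.2 cpm, against 16.4 to 34.3 cpm, while its ES cell and fibroblast sums lay within the range of the others. The part of these markers in the ratios to WT was not tested. At 1.5-fold, 2 of 7 members differed between dCas9-OGA and its D242A control (28.3% of genes did). Against WT, 3 of 7 did so in dCas9-OGA (46.1%), 3 of 7 in dCas9-OGA(D242A) (43.4%) and 2 of 7 in Dnmt1-/- (37.6%), so at neither threshold does the count mark out the members. Between dCas9-OGA and its D242A control, 0 of 20 other restriction factors, 1 of 8 genes around CUL7 (lower), 2 of 8 sensing genes (both higher) and 3 of 8 interferon-stimulated genes (2 higher, 1 lower) differed 2-fold.

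Mov10 was the highest member per kb in all 4 libraries. It had 352.4 cpm in dCas9-OGA, 228.5 in its D242A control, 281.4 in WT and 324.8 in Dnmt1-/-. The dCas9-OGA library was 1.54-fold higher than its control, a log2 ratio of 0.62 (95% counting interval 0.58 to 0.67), and 26.1% of genes compared differed by as much. The 8 ES cell genes had a median log2 ratio of 0.59 in this pair, with 2 of 8 at least 2-fold higher, while Zfp42 was lower (419.9 against 494.3 cpm) and Sox2 nearly level (752.2 against 754.6 cpm). Their part in the Mov10 value was not tested. The WT library lay between the pair, with dCas9-OGA above it by 0.32 and dCas9-OGA(D242A) below it by 0.30 on the log2 scale.

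Cul7 (ENSMUSG00000038545, chr17:46650337-46664364, plus strand) was highest in WT. It had 146.1 cpm in dCas9-OGA, 148.9 in its D242A control, 241.9 in WT and 121.8 in Dnmt1-/-. The Dnmt1-/- library was 1.98-fold lower than WT (log2 ratio -0.99, counting interval -1.06 to -0.92), just short of the 2-fold threshold, and 17.9% of genes differed by as much. Both fusion libraries were lower than WT by similar amounts, with log2 ratios of -0.73 and -0.70. Between them the ratio was -0.027, with a counting interval of -0.094 to 0.039 that includes 0. Since each is a single library, a difference between active and inactive hydrolase cannot be tested for Cul7.

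Fbxw8, the partner of CUL7, had 100.8 cpm in dCas9-OGA, 107.1 in its D242A control, 117.0 in WT and 68.1 in Dnmt1-/-. As with Cul7, the Dnmt1-/- library was lowest, with a log2 ratio to WT of -0.78 (counting interval -0.88 to -0.69). dCas9-OGA and its control differed by -0.088 (counting interval -0.17 to -0.0093).

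Zc3hav1 gave the lowest value of any detected member in the dCas9-OGA library. It had 17.4 cpm in dCas9-OGA, 34.7 in its D242A control, 55.1 in WT and 52.1 in Dnmt1-/-, from 433 counts in dCas9-OGA and 863 in the control. The log2 ratio of dCas9-OGA to its control was -0.97 (counting interval -1.16 to -0.82), a size reached by 12.8% of genes. Against WT it was -1.63 (counting interval -1.82 to -1.50), the only 2-fold difference among the members. The control was itself lower than WT by 0.66 on the log2 scale.

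Apobec3 had 102.7 cpm in dCas9-OGA, 86.4 in its D242A control, 171.2 in WT and 145.6 in Dnmt1-/-. Both fusion libraries were lower than WT, with log2 ratios of -0.73 and -0.98, and dCas9-OGA was above its control by 0.25 (counting interval 0.17 to 0.33). Samhd1 had 77.9, 96.4, 98.5 and 89.1 cpm in the same order of libraries, with dCas9-OGA below its control by 0.31 on the log2 scale. Adar had 68.3, 61.4, 67.1 and 73.7 cpm, the narrowest spread of the 7 detected members. Its log2 ratio of dCas9-OGA to the control was 0.15 (counting interval 0.055 to 0.26).

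Trex1 (ENSMUSG00000049734, chr9:109057933-109059734, minus strand) was listed at 0 counts in all 4 single libraries. A count of 0 allows up to 3 counts, which is 0.121 to 0.158 cpm in these libraries. All 1147 of its exon bases also belong to exons of Atrip on the same strand, and Atrip was listed at 3 to 8 counts. How reads on both genes were counted is not given in the sources used here, so the value gives no level for Trex1.

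**Figure D4:**
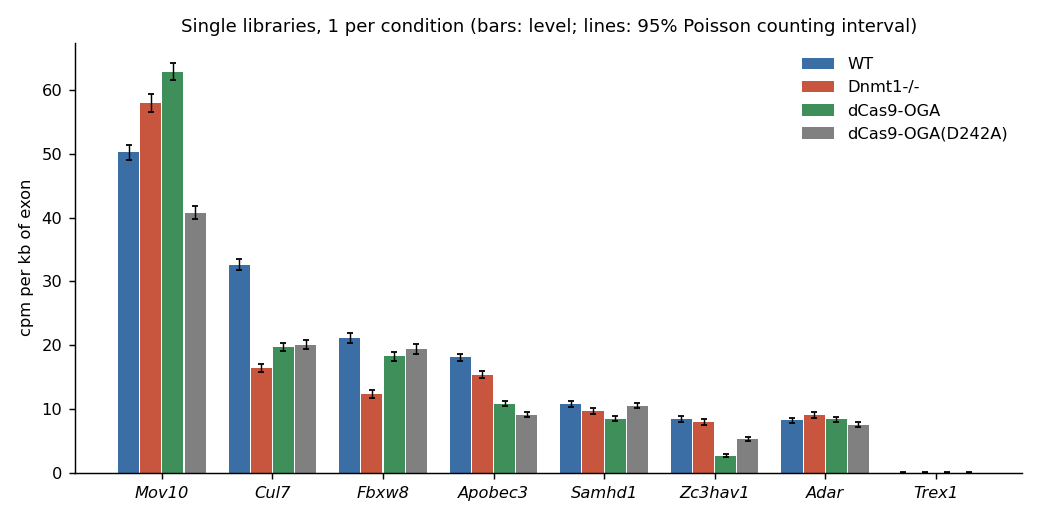
Level per kb of exon (cpm per kb, vertical axis from 0) of the 8 members in the 4 single libraries. Bars are 1 library each and lines its 95% Poisson counting interval (for Trex1, up to 3 counts). Mov10 is highest in dCas9-OGA, Cul7 is highest in WT, Zc3hav1 is lowest in dCas9-OGA and Trex1 is listed at 0.

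Both sets of libraries hold a Dnmt1-/- to WT contrast, and the members did not keep their direction between them. All 6 members with both values had opposite signs. Mov10 was lower by 0.90 on the log2 scale in the replicates and higher by 0.21 in the single libraries, and Adar was lower by 0.53 and higher by 0.14. Fbxw8, Apobec3 and Samhd1 were higher by 0.24, 0.46 and 0.13 in the replicates and had single-library ratios of -0.78, -0.23 and -0.14. Zc3hav1 was higher by 0.65 in the replicates and differed by -0.080 in the single libraries, where its counting interval of -0.20 to 0.039 includes 0. Over all 11686 genes with both values, 55.5% had the same sign, and 56.8% of the 8654 genes called in the replicates did. The sets also differ in fibroblast marker level, as given above, and in primitive endoderm markers, which were higher in Dnmt1-/- in the replicates (5 of 6) and at least 2-fold lower in the single libraries (4 of 5). Their part in these differences was not tested. Direction in Dnmt1-/- cells is therefore given here for each set on its own.

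**Figure D5:**
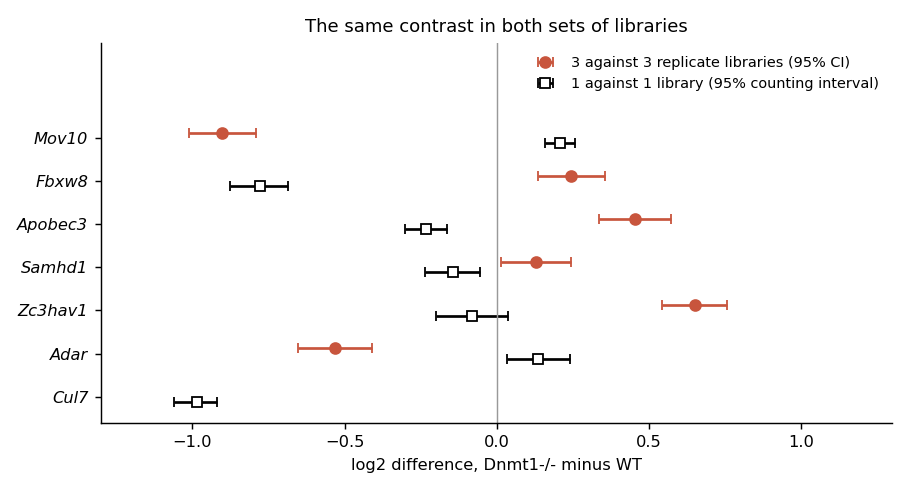
Log2 difference, Dnmt1-/- minus WT (horizontal axis), of each member. Filled circles are the 3 against 3 replicate libraries with 95% confidence intervals, and open squares the 1 against 1 single libraries with 95% counting intervals. Circles and squares fall on opposite sides of 0 for all 6 members that have both, and Cul7 has a square only, at -0.99.

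Genes with the most similar pattern to Mov10 were ranked by root-mean-square difference of centred log2 values over 10 libraries. Among 12786 genes, Enah, Cltb and Smim4 were nearest at 0.080, 0.089 and 0.092, against a median of 0.51. Adar ranked 70, and the other members with a value in both sets lay between 4641 and 11538. For Cul7 only the 4 single libraries could be used. There Ttll9, Plxnb1 and Pfkl were nearest at 0.029, 0.031 and 0.048, against a median of 0.49, and Fbxw8, with a difference of 0.23, ranked 1101 among 13936 genes, the nearest of the members.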

How the data were processed

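The data are mRNA sequencing of mouse ES cells. The authors mapped reads to mm10 (processing notes name HISAT2 2.1.0, TopHat2 2.0.11 and Bowtie2 2.2.2) and counted them on Ensembl v87 genes with featureCounts 1.5.0. Per the labels, HISAT2 goes with the replicates and TopHat2 with both libraries that express a fusion protein, while no label covers the single WT and Dnmt1-/- columns. Whether counting used strand is not given in the sources used here. For the replicates the authors deposited a normalized signal (counts divided by a scaling factor for each library). Up to a common constant, these factors matched DESeq2 size factors to within 0.582%. The alternative with DESeq2 size factors is therefore nearly the main scaling. For the single libraries the authors deposited raw counts per gene. Signal values were whole multiples of 1 read (within 0.01) for 100% of values, and these recovered reads were used by the count tests. In the replicate files the header line is shifted, and values were read from the column in the third place. Columns with the authors' own comparisons were not used.

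Replicate genes passing edgeR's filterByExpr were tested with limma 3.58.1 (trend) on log2(signal + 0.5), which understates changes of low genes, with Benjamini-Hochberg adjustment at 0.05. Alternatives were edgeR 4.0.16 quasi-likelihood and DESeq2 1.42.0 tests on recovered reads, other scalings, pseudocounts of 0.1 and 2, no filter, a replicate block and leaving out each library. Fits were tested on simulated data. Single libraries were scaled with TMM, and log2(cpm + 0.5) was compared where both libraries together held at least 100 counts, with a 2-fold threshold (alternative 1.5) and exact 95% binomial counting intervals. Intervals and floors cover counting error only. Positions, exon lengths (the union of exons per gene) and overlaps are from GENCODE vM21 on GRCm38, not the authors' Ensembl v87, and promoters from RefSeq (GRCm38.p6). The members and lists were chosen with earlier results of these data known. All members were named. For each other list, counts per direction were given, and at most 4 called genes with the largest absolute fold change were named. Ddx58, Zfp42 and Sox2 were added after their values were seen. H19, Igf2, Dnmt1 and the 3 nearest patterns to Mov10 and Cul7 were also named. The fibroblast, ES cell, primitive endoderm, 2-cell-like and blood marker lists were also summed in each library.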

Additional observations from a re-analysis of the deposited data

Results flagged for a closer look

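In 5 members, all 3 Dnmt1-/- replicates lay on 1 side of all 3 WT replicates, while the single Dnmt1-/- library lay on the other side of the single WT library by more than the counting interval. The difference between the sets was not tested, since the single set has 1 library per condition. The log2 ratio in the single libraries was 0.21 for Mov10 against -0.90 in the replicates, -0.78 for Fbxw8 against 0.24, -0.23 for Apobec3 against 0.46, -0.14 for Samhd1 against 0.13, and 0.14 for Adar against -0.53. Groups of 3 libraries are too small for a test of outlying samples.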

How the results depend on the processing

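Mov10, Adar, Zc3hav1, Apobec3 and Fbxw8 kept their direction and their call under all 14 alternatives each, and Samhd1 kept its direction but lost its call under 8 of 14, with log2 fold changes of 0.096 to 0.15 and adjusted p from 0.0240 to 0.180 (limma, edgeR and DESeq2). Mov10 ranged from -0.94 to -0.87. The number of genes called stayed within 1.5 times 12324, from 11404 with DESeq2 to 13271 without the filter, and leaving out 1 library gave 11616 to 12128. Replicate numbers did not pair the samples (correlations of deviations 0.074, -0.016 and 0.065), and with the replicate block 12556 genes and 6 members were called. In the single libraries, 83 of 84 alternative ratios kept their sign. The exception was Cul7 in dCas9-OGA against dCas9-OGA(D242A), at 0.026 with DESeq2 size factors. At a threshold of 1.5-fold the members past it numbered 2 for dCas9-OGA against dCas9-OGA(D242A), 3 for dCas9-OGA against WT, 3 for dCas9-OGA(D242A) against WT and 2 for Dnmt1-/- against WT, in place of 0, 1, 0 and 0, and the shares of all genes past 1.5-fold were 28.3%, 46.1%, 43.4% and 37.6%. With 1 library per condition, spread between cultures is unknown there, and Cul7 rests on those libraries alone.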

Other observations

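Other marker lists also differed between the replicate groups. The 6 primitive endoderm genes summed to 118.9 to 121.2 in WT and 175.8 to 184.7 in Dnmt1-/- replicates, with 5 of 6 higher. In the single libraries they summed to 48.2 cpm in WT and 16.4 cpm in Dnmt1-/-, with 4 of 5 compared genes at least 2-fold lower. The 6 genes of the 2-cell-like state summed to 265.5 to 284.4 in WT and 113.4 to 131.1 in Dnmt1-/-, with 5 of 6 lower, and the 6 blood genes to 63.3 to 68.9 and 49.7 to 51.3, with 2 higher and 4 lower. In the single libraries the 2-cell-like genes summed to 26.6 cpm in WT and to 1.16, 0.363 and 1.33 cpm in Dnmt1-/-, dCas9-OGA and dCas9-OGA(D242A).

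Among the single libraries, H19 was lowest in dCas9-OGA at 6.89 cpm, against 189.6 in its D242A control, 181.3 in WT and 135.6 in Dnmt1-/-. Igf2 had 9.67, 41.4, 200.0 and 14.7 cpm in the same order. Mov10l1 had 33.2 cpm in dCas9-OGA and 13.8 to 16.9 cpm in the other 3 single libraries. Ifitm3 had 63.7 cpm in the single WT library and 185.5 to 231.1 cpm in the other 3.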
